A study of Mus musculus with 8 samples.

Results

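The clustered protocadherin genes were examined in the brains of diabetic mice on a ketogenic diet. Members were chosen by gene symbol, as every gene named for the alpha, beta or gamma protocadherin cluster, which gave 54 of the 17983 symbols in the count table: 11 alpha, 22 beta and 21 gamma genes. The family was picked for study with earlier results of the same diet comparison known, so its changes between the diets are given here as a description and are no independent support for a direction. The symbols Pcdha4, Pcdha6, Pcdha7 and Pcdhgb8 are not in the count table, so they have no part in the sums or the order given here.

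The samples were 4 ketogenic and 4 control libraries of messenger RNA from whole brains of male db/db mice. The ketogenic diet, a high-fat feed with little carbohydrate, was fed between 9 weeks and 6 months of age, and the control mice ate a normal diet over the same time. Both groups carried the db/db genotype, a mutation of the leptin receptor that leads to obesity and type 2 diabetes, so no lean brain is part of the comparison. Nothing in the sources says whether each library came from 1 animal, and p-values then measure only the spread between these libraries, which may be technical.

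Clustered protocadherins are cell surface proteins of the cadherin superfamily that neurons use to tell their own branches from those of other neurons. In the alpha and gamma clusters each gene has its own promoter and its own large first exon, which is spliced to short constant exons shared by the whole cluster, whereas each beta gene is complete in itself. A neuron switches on a small, largely random set of these promoters, brought into contact with distant enhancers by the factor CTCF and the cohesin ring, while the C-type genes at the ends of the alpha and gamma clusters are expressed more widely. The proteins bind matching copies on facing membranes, of the same cell or of another. The family takes part in dendrite self-avoidance, the spacing of axons and the survival of interneurons.

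All 54 genes lie on chromosome 18 of the GRCm38 build. By RefSeq positions the alpha cluster runs over 257 kb, from 36930285 to 37187663, the beta cluster over 256 kb, from 37264998 to 37521419, and the gamma cluster over 180 kb, from 37661775 to 37841873. Each alpha and gamma gene with annotated exons shares 3 exons with its cluster in GENCODE, which make up 48.6 to 54.9% of the exon bases of an alpha gene and 41.7 to 45.5% of those of a gamma gene. Beta genes share none. A read from a shared exon cannot be assigned to 1 gene, and the treatment of such reads in counting is not given in the sources used here. Across libraries, the lowest alpha count was 0 and the lowest gamma count 135, so the shared reads were not credited in full to every gene of the alpha cluster. The gene lengths behind the deposited FPKM values (fragments counted, scaled by gene length and library total) were 5242 to 5719 bases for alpha, 2340 to 5271 for beta and 4629 to 5080 for gamma genes, with the shared exons included.

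Levels spanned a wide range within the family, and a few C-type genes dominated it. Per length, Pcdhgc5, the last C-type gamma gene, was the highest at 23.9 ± 1.94 FPKM, followed by Pcdhgc3 at 17.2 ± 1.497 FPKM and Pcdhac2 at 6.29 ± 0.56 FPKM (SD, n = 8 libraries). These 3 genes held 35.1% of all 196571 counts of the family. The median gene stood at 1.95 FPKM, 12.2-fold below Pcdhgc5, and 43 of the 54 genes averaged at least 1 FPKM. By cluster the median was 0.51 FPKM for alpha, 1.80 FPKM for beta and 2.94 FPKM for gamma genes. In share of the family's counts, gamma genes held 66.8%, beta genes 23.1% and alpha genes 10.1%. Whether reads from shared exons were counted is not known. If they were dropped, these medians and shares are too low for alpha and gamma beside beta, whose genes share no exons.

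Levels in the alpha cluster were uneven, with a low end that rests on Pcdha8, at a mean of 9 counts a library. Pcdhac2, at the far end of the cluster, stood at 6.29 FPKM and Pcdha12 at 1.03 ± 0.22 FPKM. Pcdhac1, the C-type gene next to Pcdhac2, stood at 0.42 ± 0.11 FPKM and Pcdha8 at 0.04 ± 0.06 FPKM. Among beta genes the highest were Pcdhb9 at 4.95 ± 0.51 FPKM and Pcdhb17 at 4.36 ± 0.33 FPKM, and their spreads overlap. The lowest beta gene, Pcdhb1, stood at 0.14 ± 0.10 FPKM. Among gamma genes outside the C-type, Pcdhga11 was highest at 4.55 ± 0.45 FPKM and Pcdhgb4 lowest at 1.16 ± 0.19 FPKM. Across genes of 1 cluster, the rank correlation of level with order along the chromosome was 0.14 over 11 alpha genes, 0.36 over 22 beta genes and 0.47 over 21 gamma genes. The gamma value was 0.23 over the 18 genes outside the C-type. These correlations are over genes that share the same libraries and, in the alpha and gamma clusters, exons.

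**Figure D1:**
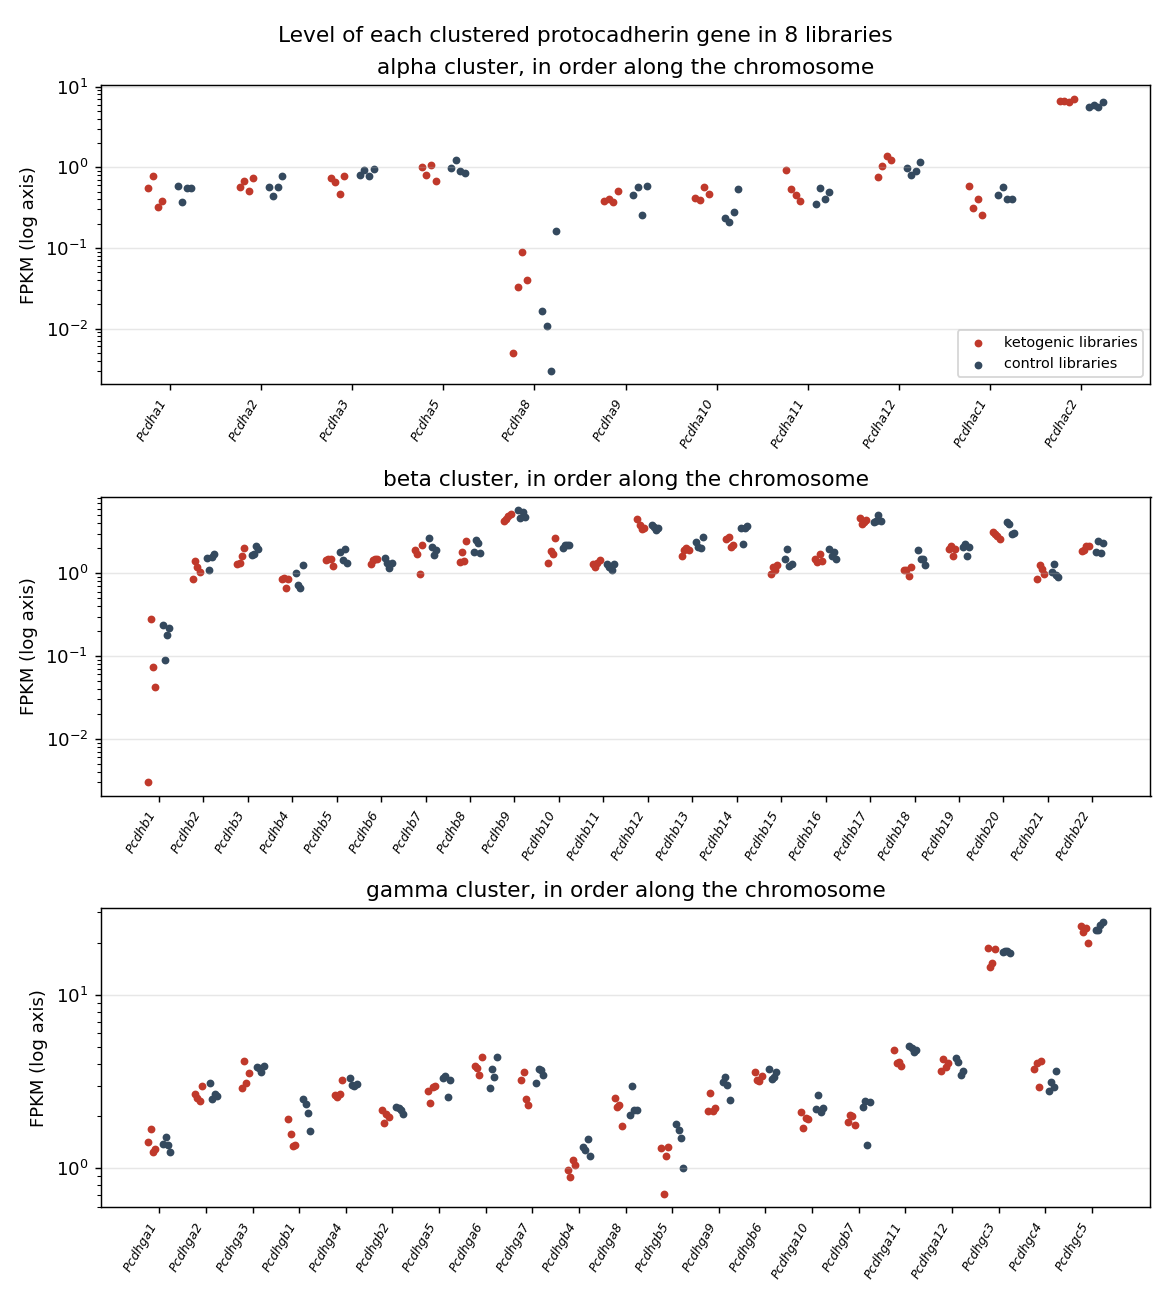
Level of each of the 54 genes in each library, in FPKM on a log axis, with genes in their order along the chromosome from left to right and ketogenic libraries left of control libraries at each gene; values of 0 FPKM are drawn at 0.003. Pcdhgc5, Pcdhgc3 and Pcdhac2 stand above the rest of their clusters, Pcdha8 and Pcdhb1 stand below, and the points of both diets lie over each other for most genes.

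The beta and gamma clusters were lower in summed level in ketogenic than in control brains, by small amounts, and the alpha cluster was not. These sums are counts scaled for library size and composition (CPM), added over the genes of a cluster, and carry no test because the genes were picked with results known. The beta sum was 140.0, 140.9, 139.4 and 146.5 CPM in ketogenic replicates 1 to 4, against 173.8, 156.8, 157.9 and 157.2 CPM in control replicates 1 to 4. The diets did not overlap, and control replicate 1 stood above all others. Beta averaged 141.7 ± 3.24 CPM in ketogenic and 161.4 ± 8.25 CPM in control brains (SD, n = 4 each), a log2 ratio of -0.19, and the ratio was -0.15 without control replicate 1.

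The gamma sum was 445.0, 407.8, 418.6 and 407.3 CPM in ketogenic replicates 1 to 4, against 459.0, 459.4, 446.7 and 452.7 CPM in control replicates 1 to 4. Again the diets did not overlap, but ketogenic replicate 1 came within 2 CPM of the lowest control library. Gamma averaged 419.7 ± 17.7 CPM in ketogenic and 454.5 ± 6.01 CPM in control brains, a log2 ratio of -0.11. Gamma A genes made up 163.3 ± 3.58 CPM in ketogenic and 178.5 ± 7.60 CPM in control brains, without overlap. The gamma B sum was 51.2 ± 3.50 CPM in ketogenic and 59.8 ± 4.98 CPM in control brains, and the 3 C-type gamma genes summed to 205.1 ± 13.6 CPM in ketogenic and 216.2 ± 6.33 CPM in control brains. Both of these sums overlapped between the diets.

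The alpha sum was 69.5, 66.8, 69.1 and 68.4 CPM in ketogenic replicates 1 to 4, against 61.7, 63.6, 58.7 and 70.7 CPM in control replicates 1 to 4. Control replicate 4 lay above all ketogenic libraries, so the diets overlapped. Alpha averaged 68.4 ± 1.19 CPM in ketogenic and 63.7 ± 5.10 CPM in control brains, a log2 ratio of 0.10. Most of this came from Pcdhac2: without the C-type genes the alpha sum had a log2 ratio of 0.02, an alternative chosen after seeing the data.

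**Figure D2:**
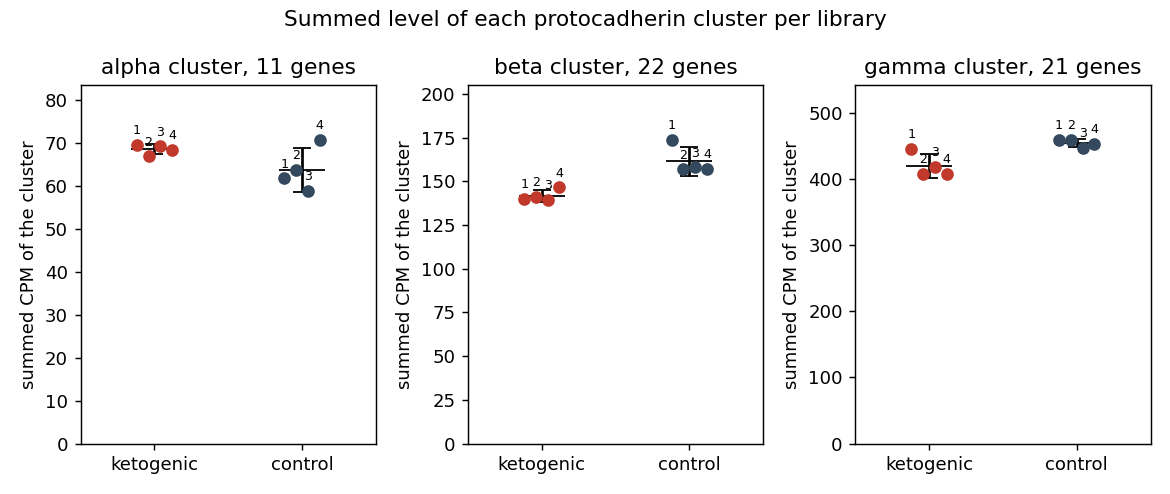
Summed CPM of the alpha, beta and gamma clusters, with 1 point per library and the mean and SD of 4 libraries, ketogenic left of control, on axes that start at 0. The beta and gamma points of ketogenic brains lie below all control points, while the alpha points of both diets overlap because of control replicate 4.

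As a share of the family, alpha made up 10.9 ± 0.19% of the summed CPM in ketogenic and 9.37 ± 0.72% in control brains, without overlap. Pcdhac2 made up 56.0 ± 1.61% of alpha in ketogenic and 52.8 ± 1.02% in control brains, and here the lowest ketogenic library, at 54.6%, and the highest control library, at 54.3%, nearly met. The 5 C-type genes together held 39.0 ± 1.22% of the family in ketogenic and 37.1 ± 1.49% in control brains, and overlapped. The 49 other genes summed to 384.3 ± 4.10 CPM in ketogenic and 427.3 ± 17.0 CPM in control brains, without overlap. In bulk tissue, fewer cells of a type and less RNA per cell cannot be told apart.

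Gene by gene, 1 clustered protocadherin passed the test of the diet. Of the 54 genes, 53 passed edgeR's filter on low counts, and of these 1 was lower and 0 were higher in ketogenic brains at an adjusted p under 0.05. That is 1.89% of the genes tested, beside 6.52% of all 14895 genes tested, of which 3.22% were lower and 3.30% higher. At an unadjusted p under 0.05 there were 13 of 53, of which 11 were lower and 2 higher, or 24.5% beside 24.6% of all genes. The CPM ranges of the diets did not overlap for 4 of 53, or 7.55% beside 13.7% of all genes. The fitted log2 change was below 0 for 40 of the 53, or 75.5%, beside 50.7% of all genes, and its median was -0.15 beside -0.0029. By cluster it was below 0 for 5 of 10 alpha, 18 of 22 beta and 17 of 21 gamma genes, with medians of 0.02, -0.22 and -0.14. The alpha median took either sign when single libraries were left out, between -0.04 and 0.12. Nothing is read from these shares, since the same contrast led to the choice of the family.

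Pcdhb18, a beta gene whose protein takes part in homophilic cell adhesion, fell in ketogenic brains. Its level was 5.57, 5.41, 4.80 and 5.90 CPM in ketogenic replicates 1 to 4, against 9.86, 7.51, 7.64 and 6.35 CPM in control replicates 1 to 4. All ketogenic libraries lay below all control libraries, and control replicate 1 was the highest of the 8. The log2 change was -0.53 ± 0.15 (SE, edgeR adjusted p = 0.0444). The call was lost without any single one of the 4 ketogenic libraries or of control replicates 1, 2 and 3, with edgeR adjusted p between 0.0592 and 0.168. Leaving out any one of those also left fewer calls over the whole table, at 70 to 331 higher and 76 to 383 lower. The log2 change of Pcdhb18 stayed between -0.62 and -0.40 whichever library was left out. The call was also lost with limma on FPKM, with the trend of GC content and length removed and without ketogenic replicates 3 and 4, at up to 0.175.

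Other beta genes with the smallest p did not pass. Pcdhb14 had 8.98, 9.20, 7.43 and 7.36 CPM in ketogenic replicates 1 to 4, against 12.3, 7.76, 12.4 and 12.6 CPM in control replicates 1 to 4. Control replicate 2 lay among the ketogenic values and the other control libraries above all of them. The log2 change was -0.45 ± 0.15 (edgeR adjusted p = 0.0788), and without control replicate 2 it passed, at an adjusted p of 0.0385. Pcdhb13 had 5.95, 6.92, 7.65 and 6.95 CPM in ketogenic brains, against 8.97, 7.73, 7.42 and 9.93 CPM in control brains, with an overlap between ketogenic replicate 3 and control replicate 3 and a log2 change of -0.31 ± 0.13. Pcdhb20 had 10.6, 10.1, 9.73 and 8.72 CPM in ketogenic brains, against 14.4, 13.2, 10.1 and 10.2 CPM in control brains. Its 2 higher control libraries stood apart while the other two met the ketogenic range, and its log2 change was -0.29 ± 0.13 (edgeR adjusted p = 0.176).

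The most abundant beta genes differed less. Pcdhb9 had 13.1, 13.5, 15.4 and 15.4 CPM in ketogenic brains, against 17.9, 14.3, 16.9 and 14.6 CPM in control brains, and Pcdhb12 had 14.0, 11.4, 10.6 and 10.4 CPM in ketogenic brains, against 11.7, 10.8, 10.3 and 10.7 CPM in control brains. Both overlapped. Pcdhb17 had 15.1, 12.7, 13.9 and 14.1 CPM in ketogenic brains, against 13.9, 14.1, 16.5 and 14.0 CPM in control brains, with control replicate 3 above the rest. Their log2 changes were -0.15 ± 0.10 for Pcdhb9, 0.09 ± 0.11 for Pcdhb12 and -0.06 ± 0.10 for Pcdhb17. Pcdhb12 turned to -0.01 without ketogenic replicate 1. Pcdhb1, the lowest gene that passed the filter, had 0, 0.68, 0.19 and 0.10 CPM in ketogenic brains, against 0.59, 0.22, 0.45 and 0.54 CPM in control brains, where 3 counts in ketogenic replicate 1 would be 0.08 CPM. The remaining beta genes averaged between 2.85 and 9.29 CPM.

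In the gamma cluster no gene passed, and the smallest p-values belonged to genes of the A and B groups. Pcdhga9 had 10.2, 12.7, 10.4 and 10.3 CPM in ketogenic replicates 1 to 4, against 15.1, 15.8, 14.4 and 11.7 CPM in control replicates 1 to 4. Ketogenic replicate 2 lay above the lowest control library, and the log2 change was -0.39 ± 0.12 (SE, edgeR adjusted p = 0.0566). Pcdhgb1 had 9.04, 7.31, 6.50 and 6.26 CPM in ketogenic brains, against 11.95, 10.96, 9.88 and 7.65 CPM in control brains, and only ketogenic replicate 1 and control replicate 4 crossed. Its log2 change was -0.47 ± 0.15 (edgeR adjusted p = 0.0704). Without control replicate 4 both passed, at edgeR adjusted p of 0.0152 for Pcdhga9 and 0.0188 for Pcdhgb1. Pcdhgb1 also passed without ketogenic replicate 1, at 0.0485. Leaving out control replicate 4 raised the calls over the whole table as well, from 491 higher and 480 lower to 938 and 962.

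Pcdhgb4 had 4.61, 4.09, 5.36 and 4.77 CPM in ketogenic brains, against 6.30, 5.93, 6.94 and 5.45 CPM in control brains. The diets did not overlap, by a small margin between ketogenic replicate 3 and control replicate 4, and the log2 change was -0.39 ± 0.15 (edgeR adjusted p = 0.115). All 6 gamma B genes had a log2 change below 0, with a median of -0.27, beside -0.15 for the 12 gamma A genes, of which 9 were below 0. Pcdhga11, the highest gamma A gene, had 22.9, 18.9, 19.9 and 18.03 CPM in ketogenic brains, against 24.2, 23.1, 22.4 and 22.5 CPM in control brains, with ketogenic replicate 1 inside the control range and a log2 change of -0.21 ± 0.09. Pcdhga12, next to the C-type genes, had 18.6, 21.3, 20.1 and 20.1 CPM in ketogenic brains, against 22.3, 20.8, 17.8 and 18.3 CPM in control brains. The diets were mixed for it, with a log2 change of 0.02 ± 0.09 that turned negative without ketogenic replicate 2, control replicate 3 or control replicate 4, down to -0.03.

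None of the 5 C-type genes passed the test. Pcdhac2, which serotonergic neurons need for the even spacing of their axons, had 37.9, 37.2, 38.3 and 39.9 CPM in ketogenic replicates 1 to 4, against 32.4, 33.4, 31.8 and 36.7 CPM in control replicates 1 to 4. All ketogenic libraries lay above all control libraries, with control replicate 4 the nearest. The log2 change was 0.19 ± 0.07 (SE, edgeR adjusted p = 0.0955), and it passed without control replicate 4, at 0.24 with an adjusted p of 0.0298. More genes were called over the whole table too without that library, 938 higher and 962 lower. Summed markers of serotonergic neurons (Tph2, Slc6a4, Fev, Gata3 and Slc18a2) were at 1.65 to 12.03 CPM in ketogenic and 2.996 to 10.4 CPM in control brains, with 3 of 5 tested, 0 called and none at 0 in all libraries. Slc18a2 averaged 4.07 CPM and Gata3 1.70 CPM over all libraries, beside 0.66 CPM for Tph2. Slc6a4, at 0.19 CPM, and Fev, at 0.08 CPM, were left out by the count filter. On average the sum was mostly Slc18a2, and it says little of these neurons. The part of these markers in the level of Pcdhac2 was not tested. Pcdhac1 had 3.08, 1.61, 2.19 and 1.33 CPM in ketogenic brains, against 2.41, 3.03, 2.16 and 2.12 CPM in control brains, which overlapped.

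Pcdhgc4, needed for the survival of cortical interneurons, had 18.9, 20.0, 15.2 and 20.6 CPM in ketogenic brains, against 14.2, 15.8, 15.0 and 18.3 CPM in control brains. Ketogenic replicate 3 lay within the control range and the other ketogenic libraries above it, and the log2 change was 0.24 ± 0.11 (edgeR adjusted p = 0.183). Pcdhgc3, which promotes the branching of cortical dendrites, had 87.2, 67.1, 73.4 and 84.0 CPM in ketogenic brains, against 84.1, 84.2, 85.1 and 81.5 CPM in control brains. The control libraries lay close together, with ketogenic replicate 1 above them, replicate 4 among them and replicates 2 and 3 below. Pcdhgc5 had 117.6, 106.4, 118.2 and 91.9 CPM in ketogenic brains, against 113.1, 110.4, 120.0 and 123.4 CPM in control brains, with ketogenic replicate 4 the lowest. The log2 changes were -0.10 ± 0.07 for Pcdhgc3 and -0.11 ± 0.07 for Pcdhgc5.

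Among the other alpha genes, Pcdha3 had 3.91, 3.47, 2.56 and 4.13 CPM in ketogenic brains, against 4.38, 5.01, 4.20 and 4.99 CPM in control brains. The diets did not overlap, though ketogenic replicate 4 and control replicate 3 lay side by side, and the log2 change was -0.40 ± 0.18 (edgeR adjusted p = 0.183). Pcdha10 had 2.18, 2.01, 3.06 and 2.36 CPM in ketogenic brains, against 1.24, 1.09, 1.46 and 2.79 CPM in control brains. Control replicate 4 was high, and the log2 change of 0.54 ± 0.30 (edgeR adjusted p = 0.289) became 0.93 without that library, with an adjusted p of 0.0439. In that setting more genes were called over the whole table as well. Pcdha11 had 4.89, 2.81, 2.48 and 1.98 CPM in ketogenic brains, against 1.85, 2.92, 2.16 and 2.56 CPM in control brains, and its log2 change of 0.36 ± 0.27 became 0.029 without ketogenic replicate 1. The diets overlapped for both of the more abundant genes that follow. Pcdha5 had 5.46, 4.26, 5.97 and 3.59 CPM in ketogenic brains, against 5.38, 6.62, 4.84 and 4.58 CPM in control brains. Pcdha12 had 4.04, 5.43, 7.49 and 6.39 CPM in ketogenic brains, against 5.21, 4.26, 4.70 and 6.01 CPM in control brains.

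Pcdha8 was the gene left out by the filter. It had 0.03, 0.17, 0.48 and 0.21 CPM in ketogenic brains, against 0.09, 0.06, 0 and 0.84 CPM in control brains, where 3 counts, the limit that a count of 0 allows, would be 0.08 CPM in control replicate 3. Limits of this kind cover counting error only.

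Along the chromosome, the rank correlation of log2 change with order was 0.28 over 10 alpha, 0.24 over 22 beta and 0.10 over 21 gamma genes, and Pearson's r was 0.35, 0.29 and 0.15. Without the C-type genes the rank correlation was 0.52 over 8 alpha genes and turned to -0.16 over 18 gamma genes. The alpha medians were -0.09 for the first 4 genes tested, Pcdha1 to Pcdha5, 0.36 for Pcdha9 to Pcdha11 and 0.19 for Pcdha12 to Pcdhac2. In the beta cluster the median log2 change was -0.26 for the first 8 genes, Pcdhb1 to Pcdhb8, -0.19 for the next 7, Pcdhb9 to Pcdhb15, and -0.07 for the last 7, Pcdhb16 to Pcdhb22. The gamma medians were -0.14 for Pcdhga1 to Pcdhga5, -0.27 for Pcdhga6 to Pcdhgb6 and -0.11 for Pcdhga10 to Pcdhgc5, with 7 genes in each stretch. Pcdhb18, the gene that passed, lies among the last 7 beta genes. The 10 neighbouring genes before the alpha cluster had 1 call, Ndufa2, a subunit of respiratory complex I. The 10 after the gamma cluster had 0 in 9 tested. Of all genes tested 6.52% were called, and nothing is read from these few neighbours.

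**Figure D3:**
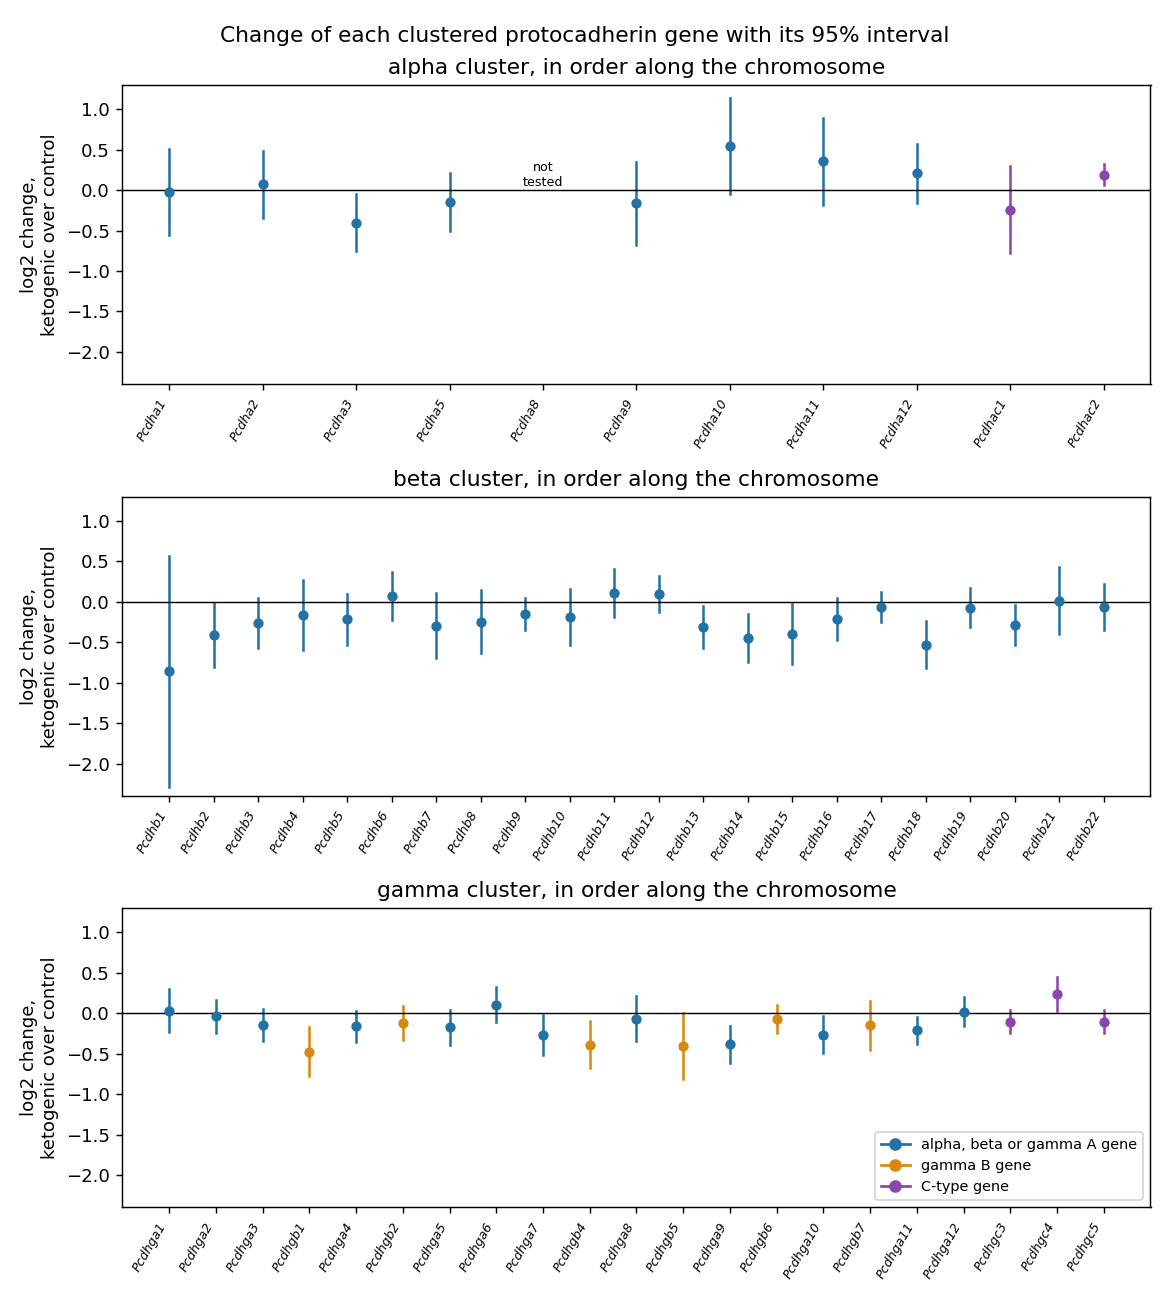
Fitted log2 change of each tested gene, ketogenic over control, with bars for its 95% interval, in order along the chromosome and coloured by group. Most beta and gamma points lie below 0, all 6 gamma B genes among them, and most bars cross 0; the alpha points lie on both sides.

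The genes also differed in how much they varied between libraries of the same diet. The median within-diet coefficient of variation was 23.6% for alpha, 15.8% for beta and 10.7% for gamma genes, where counting error alone would give 9.46%, 6.45% and 4.4%. As variance over mean of scaled counts within diets, the medians were 6.94 for alpha, 5.23 for beta and 6.88 for gamma genes. The median over 12429 genes in the same range of counts was 5.99, so the family's spread was near that of such genes. Pcdhac2 had the smallest coefficient of variation, at 4.79%. The spread between libraries sets what 4 libraries a diet can show: the SE of the log2 change had a median of 0.15, and ran between 0.07 for Pcdhac2 and 0.73 for Pcdhb1.

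**Figure D4:**
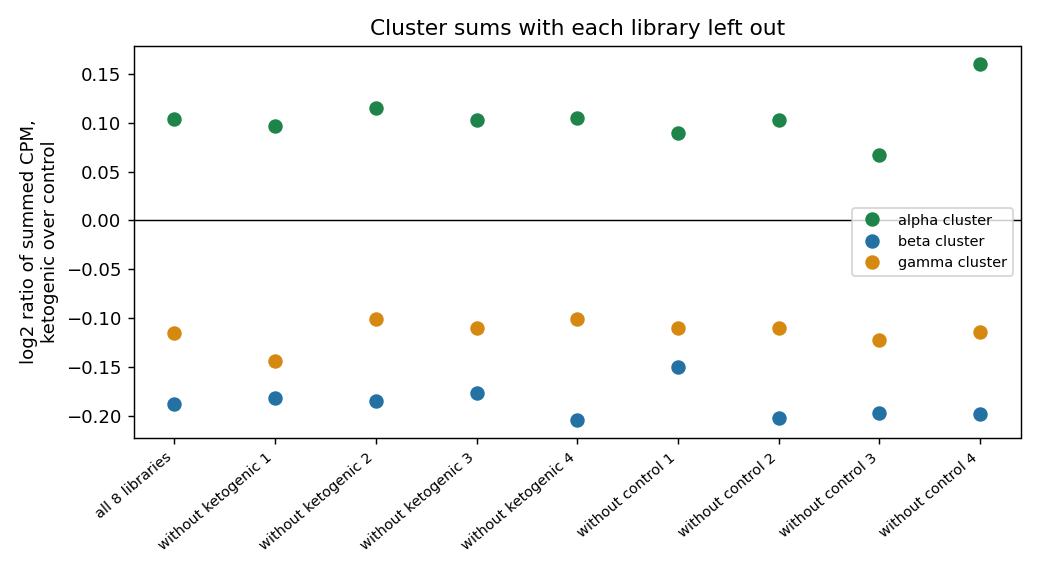
Log2 ratio of the summed CPM of each cluster, ketogenic over control, with all 8 libraries and with 1 library omitted at a time. The beta ratio lay between -0.20 and -0.15, the gamma ratio between -0.14 and -0.10 and the alpha ratio between 0.07 and 0.16.

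Among 7 lists of related genes, 4 genes were higher and 11 lower of 111 tested, or 13.5% beside 6.52% of all genes tested. The lists were chosen with earlier results known, and nothing is read from this share. A list of non-clustered protocadherins and of Fat, Dchs and Celsr cadherins had 1 gene that fell, of 19 tested. This was Pcdh9, an adhesion gene of the delta group, at 174.3 ± 10.3 CPM in ketogenic and 202.2 ± 7.54 CPM in control brains. Its log2 change was -0.21 ± 0.05 (SE, edgeR adjusted p = 0.0343). Of 14 genes of CTCF and cohesin, 1 rose and 0 fell. It was Mau2, which helps load cohesin onto DNA, at 100.1 ± 3.36 CPM in ketogenic and 80.0 ± 7.32 CPM in control brains, for which the log2 change was 0.32 ± 0.06 (edgeR adjusted p = 0.0132). Ctcf itself had a log2 change of -0.02 ± 0.06, the cohesin subunit gene Rad21 -0.16 ± 0.07 and the cohesin release factor gene Wapl -0.12 ± 0.06, and none of these passed. Over the 14 genes the median log2 change was -0.07, and 3 were above 0. The cohesin subunit genes Smc3 (-0.21 ± 0.06, edgeR adjusted p = 0.0603) and Smc1a (-0.17 ± 0.05, edgeR adjusted p = 0.0641) did not pass. Both were named after their values were seen. Ctcf took either sign across the alternatives. Rad21 passed without control replicate 4, at an edgeR adjusted p of 0.0465, in a setting where more genes were called over the whole table. The Mau2 call was lost without control replicate 1, at 0.0555, without ketogenic replicates 3 and 4, at 0.0766, and with limma on log2(FPKM + 1), at 0.0728.

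A list of 18 genes of DNA methylation, its removal and heterochromatin, processes that act on silent protocadherin promoters, had 2 genes that rose and 4 that fell, beside 6.52% called of all genes tested. Lrif1, whose protein binds the silencing factor Smchd1, was at 8.31 ± 0.77 CPM in ketogenic and 14.2 ± 2.86 CPM in control brains, for which the log2 change was -0.77 ± 0.14 (SE, edgeR adjusted p = 0.00778), and its call held whichever library was left out but not without ketogenic replicates 3 and 4, at 0.0628, or with limma on log2(FPKM + 1), at 0.0679. Atf7ip, a partner of the histone methyltransferase Setdb1, fell with a log2 change of -0.24 ± 0.06, and Tet2, which oxidises methylated cytosine, fell with -0.34 ± 0.09. Trim28, a corepressor that recruits Setdb1, rose with a log2 change of 0.21 ± 0.05. The other 2 calls, Tet1 and Ehmt2, were named after their values were seen. Tet1, which oxidises methylated cytosine as Tet2 does, had a log2 change of -0.47 ± 0.12 (edgeR adjusted p = 0.0349). The histone methyltransferase gene Ehmt2 had 0.20 ± 0.05 (edgeR adjusted p = 0.0354). Whether the calls of Tet1 and Ehmt2 hold under the alternatives was not examined. The calls of Atf7ip, Tet2 and Trim28 were lost without any one of 4 or 5 libraries each, with edgeR adjusted p up to 0.0956. These libraries always included ketogenic replicates 2 and 4 and control replicates 1 and 2. Without any one of those, fewer genes were called over the whole table too. The calls were also lost after removal of the GC and length trend, at 0.106 for Atf7ip, 0.0802 for Tet2 and 0.143 for Trim28. Smchd1 (-0.02 ± 0.07, with either sign across the alternatives), Setdb1 (0.06 ± 0.06) and Dnmt3b, the methyltransferase of protocadherin promoters (0.20 ± 0.11 CPM in ketogenic and 0.40 ± 0.16 CPM in control brains), did not pass.

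Of 17 partner and signalling genes 1 fell, Rhoa, a small GTPase of the actin cytoskeleton, with a log2 change of -0.19 ± 0.05, while Ptk2b, the kinase that protocadherins inhibit, had 0.11 ± 0.06 and did not pass. Of 10 shedding and trafficking genes 1 fell, Tsg101 of the endosomal sorting machinery, with -0.31 ± 0.07. Of 16 classical cadherins and catenins, Ctnnb1 (beta-catenin) rose with 0.19 ± 0.05 and Cdh9 fell with -0.40 ± 0.11. Of 17 other neuronal adhesion genes 3 fell: Cadm2 with -0.28 ± 0.07, Nlgn1, a postsynaptic adhesion gene, with -0.25 ± 0.06, and Ncam2 with -0.25 ± 0.07. Each of these 7 calls, and that of Pcdh9, was lost without any one of 5 to 7 libraries, with edgeR adjusted p between 0.0504 and 0.17. Control replicates 1, 2 and 3 and ketogenic replicate 2 were among these libraries every time. Calls over the whole table fell too, from 491 higher and 480 lower. The counts were 70 and 76 without control replicate 1, and 99 and 106 without control replicate 2. They were 221 and 202 without control replicate 3, and 102 and 94 without ketogenic replicate 2. After removal of the GC and length trend none of the 8 genes passed, with edgeR adjusted p up to 0.379. The log2 changes were then -0.11 for Ncam2, -0.11 for Nlgn1, -0.12 for Cadm2, -0.12 for Rhoa and -0.11 for Pcdh9.

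Cell type markers were read beside these values. Of 51 markers tested in 10 lists, 5 were called higher and 4 lower, or 17.65%, beside 6.52% of all genes tested. The lists were chosen with earlier results known, and nothing is read from this share. Neuron markers, of which 0 of 9 were called, averaged 9.50 ± 0.07 in log2 CPM in ketogenic and 9.54 ± 0.04 in control brains, and summed to 8610 to 9959 CPM in ketogenic and 9208 to 10200 CPM in control brains. Astrocyte markers were lower, with 4 of 6 called, and averaged 8.05 ± 0.05 in log2 CPM in ketogenic and 8.31 ± 0.09 in control brains, without overlap. Their levels summed to 3521 to 4068 CPM in ketogenic and 3718 to 4482 CPM in control brains. Erythroid markers were higher, with 4 of 5 called, and summed to 69.4 to 114.1 CPM in ketogenic and 15.3 to 52.4 CPM in control brains. Of the microglia markers 1 of 5 was higher, and 0 were called among those of Purkinje cells, oligodendrocytes, their precursors, endothelium and choroid plexus. Of the 4 Purkinje markers 3 were tested, and Pcp2, at a mean of 0.11 CPM, was left out by the count filter. Itpr1, at 750.8 CPM, and Calb1, at 147.7 CPM, held most of that list's level, so it says little of Purkinje cells. None of these markers was at 0 in all libraries, and their part in the sums of the clusters was not tested. Total counts were 34450860 to 40233361 per library, and the family held 0.061 to 0.065% of them in ketogenic and 0.066 to 0.069% in control libraries. On the first principal component, with 22.9% of the variance, ketogenic replicate 3 lay at -34.9, the other ketogenic libraries between -11.3 and -2.48, and the control libraries between 6.03 and 22.6. Without ketogenic replicates 3 and 4 the log2 ratio of the beta sum was -0.20 and that of the gamma sum -0.09.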

How the data were processed

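Per the labels, 8 libraries of db/db mouse brain (4 ketogenic, 4 control) were made from 1.3 ug of total RNA with a SMARTer messenger RNA kit. The authors deposited whole-number counts per gene symbol and FPKM values, which equalled count over length and column total (relative spread of the length up to 1.79e-07 over 14009 genes with at least 10 counts in each library). The builds GRCm38 and mm10 are named per the submitters' processing notes; for the aligner, counting program, strand use and annotation, nothing was given in the sources used here. There were 0 unused sample columns.

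Ketogenic was compared with control by edgeR 4.0.16 (R 4.3.3) on the deposited counts, with TMM factors, its low-count filter (14895 genes kept, 3088 left out), the quasi-likelihood F test and Benjamini-Hochberg adjustment over all genes at 0.05. CPM are after TMM, and SE is the log2 change over the square root of F. Family members share exons and beta genes resemble each other, so reads may be split between them. Positions are RefSeq GRCm38.p6 and exons GENCODE M21; the counting may have used another annotation. Marker means are of log2(CPM + 0.1).

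Members and lists were chosen with earlier results of these data known. Named were the 4 highest and the 4 smallest-p genes per cluster, the C-type genes, those nearest the count filter, up to 4 passing genes per list, and Ctcf, Rad21, Wapl, Smchd1, Setdb1, Dnmt3b and Ptk2b. Ndufa2, Smc3 and Smc1a were named after their values were seen. Alternatives were DESeq2 1.42.0, limma 3.58.1 on log2(FPKM + 1) and log2(FPKM + 0.1), other factors and filters, a replicate block, a GC and length trend (loess, span 0.3), and libraries left out. The test was checked on simulated counts. Plots used matplotlib 3.10.9.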

Additional observations from a re-analysis of the deposited data

Results flagged for a closer look

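In 54 groups of 4 libraries examined, 5 held a library whose gap to its nearest neighbour was more than 0.829 of the group's range; chance flags about 1 in 20 groups. Control replicate 4 had 0.845 CPM of Pcdha8, with the other control libraries at 0 to 0.0883 CPM. Control replicate 3 had 16.5 CPM of Pcdhb17, with the others at 13.9 to 14.1 CPM. Control replicate 2 had 7.76 CPM of Pcdhb14, the lowest, with the others at 12.3 to 12.6 CPM. Ketogenic replicate 2 had 12.7 CPM of Pcdhga9, with the other ketogenic libraries at 10.2 to 10.4 CPM. Control replicate 1 had a beta sum of 173.8 CPM, with the others at 156.8 to 157.9 CPM.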

How the results depend on the processing

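The log2 ratios of the beta and gamma sums stayed below 0 and that of the alpha sum above 0 under the alternatives run for the sums (other scalings, FPKM, clusters summed before the fit, C-type genes or libraries left out), with leave-one-out ranges of -0.20 to -0.15, -0.14 to -0.10 and 0.07 to 0.16. Against 1 member lower in edgeR, there were 4 under the Wald test of DESeq2 (2 beta, 2 gamma), 3 with the replicate block (2 gamma), and 0 with limma on either FPKM scale, with the GC and length trend removed, and without ketogenic replicates 3 and 4. Leaving out 1 library gave 0 to 3 members lower (beta 0 to 1, gamma 0 to 2) and 0 to 2 higher (all alpha, both without control replicate 4). The replicate numbers were not taken as pairs: the correlations of same-numbered libraries were 0.0211, 0.0540, 0.0755 and 0.0434, and 2 of 4 ketogenic libraries correlated best with their own number. Medians moved with limma on log2(FPKM + 1) to -0.091 for all members and -0.1259 for beta, and the alpha median lay between -0.0435 and 0.1208 in leave-one-out. The alpha sum was 0.0196 without C-type genes, an alternative chosen after seeing the data. Over the whole table, 491 genes were higher and 480 lower; the counts were 866 and 853 with DESeq2, 746 and 782 with the block, 157 and 158 with the trend removed, 35 and 29 with limma on log2(FPKM + 1), 39 and 51 without ketogenic replicates 3 and 4, 331 and 229 with limma on log2(FPKM + 0.1), and in leave-one-out 70 to 938 higher and 76 to 962 lower. Signs turned with the trend removed for Pcdhb17 (0.0050), Pcdhga12 (-0.0092), Ctcf (0.0457) and Smchd1 (0.0875), and without ketogenic replicates 3 and 4 for Ctcf (0.0105), Smchd1 (0.0116) and Pcdha12 (-0.0896). They also turned for Pcdhga12 without ketogenic replicate 2 (-0.0139), control replicate 3 (-0.0293) or control replicate 4 (-0.0158), for Ctcf without ketogenic replicate 2 (0.0072), ketogenic replicate 4 (0.0147) or control replicate 2 (0.0041), for Smchd1 without control replicate 3 (0.0183) or control replicate 4 (0.0117), and for Pcdhb12 without ketogenic replicate 1 (-0.0127). The far ends of these leave-one-out ranges were 0.1395 for Pcdhb12, 0.0815 for Pcdhga12, -0.0665 for Ctcf and -0.0519 for Smchd1. The cause of these moves was not tested. Counting error limits the low genes most, Pcdha8 and Pcdhb1 above all.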
